A study of Mus musculus with 12 samples.

Results

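The BCL2 family genes described here were 10 genes of the mitochondrial branch of apoptosis, taken by name from the deposited expression table: *Bcl2*, *Bcl2l1*, *Mcl1*, *Bak1*, *Bok*, *Bid*, *Bad*, *Bik*, *Bmf* and *Bcl2l11*. All 10 were found, each as 1 probe set, among 23185 probe sets that carried a gene symbol and 25206 probe sets in all. The study sorted undifferentiated mouse pluripotent cells by TMRM, a dye that accumulates in mitochondria according to their membrane potential. The 4 groups were induced pluripotent stem cells (iPSC) with high potential, iPSC with low potential, embryonic stem cells (ESC) with high potential and ESC with low potential. All were female and of C57BL/6 background, kept in 2iLIF medium without serum or feeder cells, and each group held 3 Affymetrix arrays numbered 2, 3 and 4. The labels do not give the number of lines or clones, how the iPSC were reprogrammed, or whether the 3 arrays of a group are separate cultures. The p-values therefore describe variation among these arrays, part or all of which could be technical.

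BCL2 family proteins control whether the outer mitochondrial membrane is made permeable to cytochrome c, the step that commits a cell to mitochondrial apoptosis. Pro-survival members (BCL2, BCL-XL, MCL1) hold back the pore-forming effectors BAX and BAK. The BH3-only members (BID, BAD, BIK, BMF, BIM) relay stress signals by occupying the pro-survival proteins or by engaging BAX and BAK directly. Much of the control of this pathway lies in protein stability, phosphorylation and cleavage, which an RNA measurement does not read.

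Promoter stretches are shown for *Bid* and *Bcl2l11*, the members with the lowest p between the fractions, and for *Bmf*, the member with a p53 half-site match, because p53 targets and cell cycle genes are the context against which the members were read. Each is the stretch of 250 bases before an annotated start, written 5′ to 3′ in the direction of transcription, from RefSeq on build GRCm38.p6. *Bid* had 1 such window, *Bcl2l11* 2 and *Bmf* 3. Where a gene had several, the window shown is the farthest upstream of those that hold the marked motif. Capitals mark the GC box GGGCGG (either strand) in *Bcl2l11* and *Bid*, and the match to the p53 half-site consensus in *Bmf*. The *Bcl2l11* stretch is chr2:128125788-128126037 on the + strand, that of *Bid* is chr6:120916825-120917074 on the - strand, and that of *Bmf* is chr2:118544588-118544837 on the - strand.
Bcl2l11: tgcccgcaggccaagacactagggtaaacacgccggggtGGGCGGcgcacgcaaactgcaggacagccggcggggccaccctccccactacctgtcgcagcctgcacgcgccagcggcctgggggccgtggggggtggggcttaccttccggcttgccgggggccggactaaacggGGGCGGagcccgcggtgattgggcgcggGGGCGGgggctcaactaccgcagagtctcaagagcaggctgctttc
Bid: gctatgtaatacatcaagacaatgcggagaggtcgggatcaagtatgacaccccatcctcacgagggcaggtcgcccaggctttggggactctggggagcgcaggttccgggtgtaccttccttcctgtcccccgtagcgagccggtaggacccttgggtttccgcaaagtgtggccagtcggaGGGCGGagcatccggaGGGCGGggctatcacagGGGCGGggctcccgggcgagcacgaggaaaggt
Bmf: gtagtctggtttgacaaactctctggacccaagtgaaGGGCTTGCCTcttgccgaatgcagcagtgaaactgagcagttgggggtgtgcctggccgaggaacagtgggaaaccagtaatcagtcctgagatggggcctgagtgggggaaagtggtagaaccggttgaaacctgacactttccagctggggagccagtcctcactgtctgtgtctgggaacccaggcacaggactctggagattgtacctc
The *Bcl2l11* and *Bid* stretches held 3 GC boxes each and were 72% and 63.6% G or C, and the *Bmf* stretch was 55.6%, against a median of 52.4% over 32851 promoter windows of the same length. The windows shown were picked for holding the motif, so these values describe them alone. Over all its windows *Bcl2l11* had 72% to 73.2% G or C, and *Bmf* 54% to 55.6%.

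Of the 10 members, 9 had a promoter entry, in 15 windows. Both strands were searched, and each motif was counted independently, so that a base could belong to more than 1. The GC box was found for 6 of the 9 members and for 35.4% of 27025 genes. It was also found for 13 of 20 G2/M genes and 15 of 17 p53 target genes with an entry, so it did not set the members apart from these lists. By window, the share was 7 of 15 for the members and 32.7% for all. The cell cycle homology element TTTGAA, common at genes of the G2 and M phases, was found for 2 of the 9 (*Bcl2* and *Mcl1*), for 7 of 20 G2/M genes with an entry and for 18.3% of all genes. The E2F letters TTTCGCGC or TTTGGCGC were found for *Bcl2l1* alone, and for 0.759% of all genes. The p53 half-site consensus was found for *Bmf* alone among the members, for 8 of 17 p53 target genes with an entry and for 8.2% of all genes. The motifs were chosen with earlier results of these data known, and a match describes letters in this window and no more.

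The expression values were log2 values made with RMA (robust multi-array average), so a difference of 1 is a doubling. They carried no detection calls, and levels of different probe sets are not set against each other. Array medians lay between 3.51 and 3.61, and arrays of the same group correlated at 0.991 to 0.994 over all probe sets. Over the 12 arrays, *Bcl2* (3.43), *Bad* (3.55) and *Bik* (3.58) averaged near these medians. Without detection calls, whether these 3 members were above background is not known, and what this means for their differences was not tested. All 10 pluripotency markers averaged above the array median in every group, as did 4 of 12 fibroblast or feeder markers and 1 of 9 blood markers. Probe sets differ in brightness for the same amount of RNA, so these counts describe the arrays and do not test which cell types were present. The summed log2 level of the pluripotency markers was 82.7 to 83.5 in iPSC high and 82.8 to 84.1 in iPSC low, and 81.9 to 83.1 in ESC high and 81.6 to 83.9 in ESC low. That of the fibroblast markers was 41.1 to 41.7 and 39.8 to 42.2 in iPSC high and low, and 40.3 to 41.5 and 40.6 to 42.1 in ESC high and low. Averaged over iPSC and ESC, limma called 0 of 12 between fractions, against 2.50% of all probe sets. An unadjusted p under 0.05 was found for 2, against 15.6%. Over the 7 comparisons 0 were called, and the unadjusted count ran from 0 in ESC high minus low (8.29% of all probe sets) to 4 in iPSC low minus ESC low (11.2%). The summed log2 level of the blood markers was 27.7 to 29.2 and 26.7 to 28.7 in iPSC high and low, and 27.6 to 28.3 and 26.9 to 27.3 in ESC high and low. Of these 9 blood markers limma called 1 in the averaged comparison, against 2.50% of all probe sets. It was *Cd68*, a lysosomal protein gene, higher in the high fraction by 0.82 ± 0.09 (SE; adjusted p = 0.000828).

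The first question was whether cells of high and low membrane potential differed in the expression of these genes. No member passed the test. Averaged over iPSC and ESC, limma called 0 of 10 higher and 0 of 10 lower in the high fraction at an adjusted p under 0.05, where it called 2.50% of all probe sets. At an unadjusted p under 0.05 the count was also 0 of 10, against 15.6% of all probe sets. The log2 differences, high minus low, lay between -0.18 for *Bcl2l11* and 0.11 for *Bid*, with 5 members above 0 and 5 below. Their median size was 0.05, against 0.09 over all probe sets. The 95% intervals of all 10 lay within -0.43 and 0.34, that is between 0.744-fold and 1.26-fold. A p that misses the threshold does not show equal levels, and differences inside these intervals remain possible. With the spread observed, an average difference had to reach 0.25 (*Mcl1*) to 0.48 (*Bcl2l11*) to be called.

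Among the pro-survival members, *Mcl1*, which encodes a short-lived protein needed in the early embryo, varied least. Its log2 values on arrays 2, 3 and 4 were 8.69, 8.72 and 8.67 in iPSC high, against 8.86, 8.74 and 8.65 in iPSC low. They were 8.73, 8.63 and 8.62 in ESC high, against 8.67, 8.65 and 8.71 in ESC low. All 12 values spanned 0.24, the groups overlapped, and the highest array was iPSC low 2. The averaged difference of *Mcl1*, high minus low, was -0.04 ± 0.06 (SE; 95% interval -0.17 to 0.09; limma adjusted p = 0.815).

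*Bcl2l1*, which encodes BCL-XL, had log2 values of 6.48, 6.22 and 6.28 in iPSC high, against 6.60, 6.23 and 6.26 in iPSC low. In ESC it had 6.20, 6.39 and 6.49 in the high fraction and 6.16, 6.30 and 6.32 in the low fraction. The high array exceeded the low array of equal number in 4 of 6 pairs, in all 3 of ESC and in 1 of iPSC, and the groups overlapped in both cell types. For *Bcl2l1* the averaged difference was 0.03 ± 0.09 (SE; interval -0.15 to 0.22; adjusted p = 0.899).

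*Bcl2*, the founding member, had log2 values of 3.36, 3.36 and 3.66 in iPSC high, against 3.67, 3.34 and 3.39 in iPSC low. They were 3.76, 3.55 and 3.21 in ESC high, against 3.44, 3.22 and 3.20 in ESC low. *Bcl2* was higher in the high array in 5 of 6 pairs, by 0.01 to 0.33, and lower in iPSC pair 2. The averaged difference was 0.11 ± 0.11 (SE; interval -0.12 to 0.34; adjusted p = 0.688). The ESC difference alone was 0.22 ± 0.15 (adjusted p = 0.743), and leaving out 1 array put it between 0.10 (without ESC high 2) and 0.37 (without ESC high 4).

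The pore-forming effectors measured here were *Bak1* and *Bok*. *Bak1*, which encodes BAK, resident in the outer mitochondrial membrane, had log2 values of 7.38, 7.55 and 7.54 in iPSC high, against 7.58, 7.62 and 7.91 in iPSC low. These groups did not overlap: every iPSC low array lay above every iPSC high array. In ESC the values were 7.63, 7.69 and 7.25 in the high fraction and 7.53, 7.42 and 7.30 in the low fraction, with overlap and with array 4 the lowest of each. The *Bak1* difference, high minus low, was -0.21 ± 0.13 in iPSC (SE; interval -0.50 to 0.07; adjusted p = 0.549) and 0.11 ± 0.13 in ESC (interval -0.17 to 0.40; adjusted p = 0.888). Leaving out 1 array put the iPSC difference between -0.27 and -0.11. It was the only member of 10 whose arrays did not overlap between the fractions of either cell type, against 19.3% of all probe sets in iPSC and 13.1% in ESC. Over both cell types, 0 of 10 members separated the 6 high from the 6 low arrays, against 2.07% of all probe sets.

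*Bok* encodes a relative of BAX and BAK found largely at the endoplasmic reticulum. Its values were 4.59, 4.70 and 4.70 in iPSC high, against 4.55, 4.67 and 4.74 in iPSC low. They were 4.92, 4.82 and 4.36 in ESC high, against 4.67, 4.62 and 4.54 in ESC low. The ESC high arrays held both the highest and the lowest of the 12 values, so the spread within that group exceeded every difference between groups. For *Bok* the averaged difference was 0.05 ± 0.09 (SE; interval -0.15 to 0.25; adjusted p = 0.854).

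Among the BH3-only members, *Bid* encodes the protein that caspase 8 cleaves to link death receptors to mitochondria. Its values were 7.77, 7.95 and 7.73 in iPSC high, against 7.78, 7.71 and 7.74 in iPSC low. They were 7.92, 7.89 and 7.98 in ESC high, against 7.71, 7.66 and 7.97 in ESC low. The fractions overlapped in both cell types, and the high array was above the low array in 4 of 6 pairs. *Bid* had the lowest p of the 10 in the averaged comparison, with a difference of 0.11 ± 0.07 (SE; interval -0.04 to 0.27; adjusted p = 0.495).

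*Bcl2l11* encodes BIM, which binds all pro-survival members and is controlled by ERK signalling. Its values were 3.85, 4.07 and 3.78 in iPSC high, against 4.51, 4.24 and 3.92 in iPSC low. They were 4.37, 3.86 and 4.13 in ESC high, against 4.30, 4.13 and 3.997 in ESC low. All 3 iPSC pairs had the lower value in the high array, by 0.14 to 0.67, while the fractions still overlapped, and 2 of the 3 ESC pairs had the higher value there. The difference of *Bcl2l11* was -0.33 ± 0.16 in iPSC (SE; interval -0.68 to 0.03; adjusted p = 0.440). Leaving out 1 array put the iPSC difference of *Bcl2l11* between -0.48 (without iPSC low 4) and -0.18 (without iPSC low 2), and its unadjusted p was under 0.05 in 7 of 20 refits. In ESC it was -0.02 ± 0.16 (interval -0.38 to 0.33; adjusted p = 0.985), and the average was -0.18 ± 0.12 (interval -0.43 to 0.08; adjusted p = 0.520).

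*Bmf*, whose protein is held at the cytoskeleton in resting cells, had values of 4.72, 4.48 and 4.78 in iPSC high, against 4.68, 4.98 and 4.91 in iPSC low. In ESC it had 4.57, 4.90 and 4.31 in the high fraction and 4.74, 4.55 and 4.60 in the low fraction. ESC high array 3 lay above and array 4 below every ESC low array, with array 2 among them. Of the 6 pairs, 2 were higher in the high array. The averaged difference of *Bmf* was -0.12 ± 0.10 (SE; interval -0.34 to 0.11; adjusted p = 0.646).

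*Bad*, which encodes a BH3-only protein that growth factor signalling inactivates by phosphorylation, had values of 3.37, 3.87 and 3.30 in iPSC high, against 3.24, 3.48 and 3.56 in iPSC low. In ESC it had 3.65, 3.41 and 3.62 in the high fraction and 3.68, 3.54 and 3.82 in the low fraction. The high array was the lower one in all 3 ESC pairs and in 1 of the 3 iPSC pairs, and the fractions overlapped in both. The averaged difference of *Bad* was -0.01 ± 0.11 (SE; interval -0.25 to 0.22; adjusted p = 0.973).

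*Bik*, whose protein acts from the endoplasmic reticulum, had values of 3.72, 3.39 and 3.66 in iPSC high, against 3.91, 3.50 and 3.33 in iPSC low. In ESC it had 3.63, 3.62 and 3.49 in the high fraction and 3.71, 3.53 and 3.44 in the low fraction. Of the 6 pairs, 3 were higher in the high array, and iPSC low held both the highest and the lowest value. On average *Bik* differed by 0.01 ± 0.10 (SE; interval -0.21 to 0.24; adjusted p = 0.969).

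**Figure D1:**
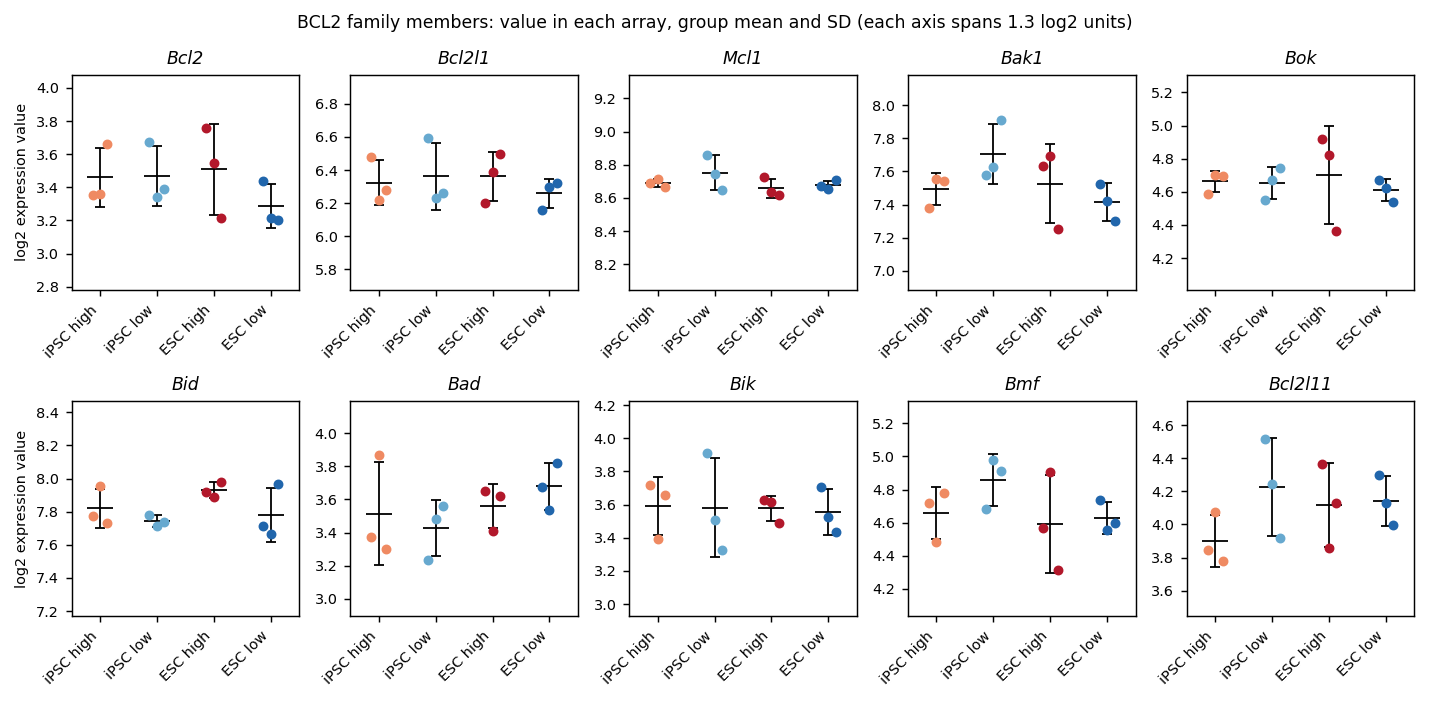
Log2 expression value of each of the 10 members on every array, with the group mean (horizontal mark) and SD (error bar, n = 3), in iPSC high, iPSC low, ESC high and ESC low. Within a panel, points run left to right from array 2 to array 4, and every vertical axis spans 1.3 log2 units; the 2 iPSC groups of *Bak1* are the only fractions of a cell type whose arrays do not overlap.

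By role, the averaged differences lay between -0.04 and 0.11 for the 3 pro-survival genes, between -0.05 and 0.05 for the 2 effectors and between -0.18 and 0.11 for the 5 BH3-only genes. No role therefore held members on 1 side of 0 only. In the order of group means, neighbouring groups overlapped in all 30 of 30 cases over the 10 members, and the largest gap between neighbouring means was 0.22 (*Bcl2l11*, ESC high above iPSC high). iPSC low had the highest mean for 5 members and ESC low the lowest for 5. Groups further apart in the order did not always overlap: every *Bak1* value of iPSC low lay above those of iPSC high and ESC low.

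Within each cell type, limma called 0 of 10 members in iPSC, where 0.547% of all probe sets passed, and 0 of 10 in ESC, where 0.357% passed. At an unadjusted p under 0.05 the counts were 0 of 10 in iPSC (12.7% of all probe sets) and 0 of 10 in ESC (8.29%). The high minus low differences of the members ran from -0.33 to 0.09 in iPSC, with intervals within -0.68 and 0.42. They ran from -0.12 to 0.22 in ESC, with intervals within -0.44 and 0.55. The smallest differences that could have been called were 0.42 to 0.82 in iPSC and 0.44 to 0.86 in ESC, so differences below 0.42 were not detectable for any member within 1 cell type.

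**Figure D2:**
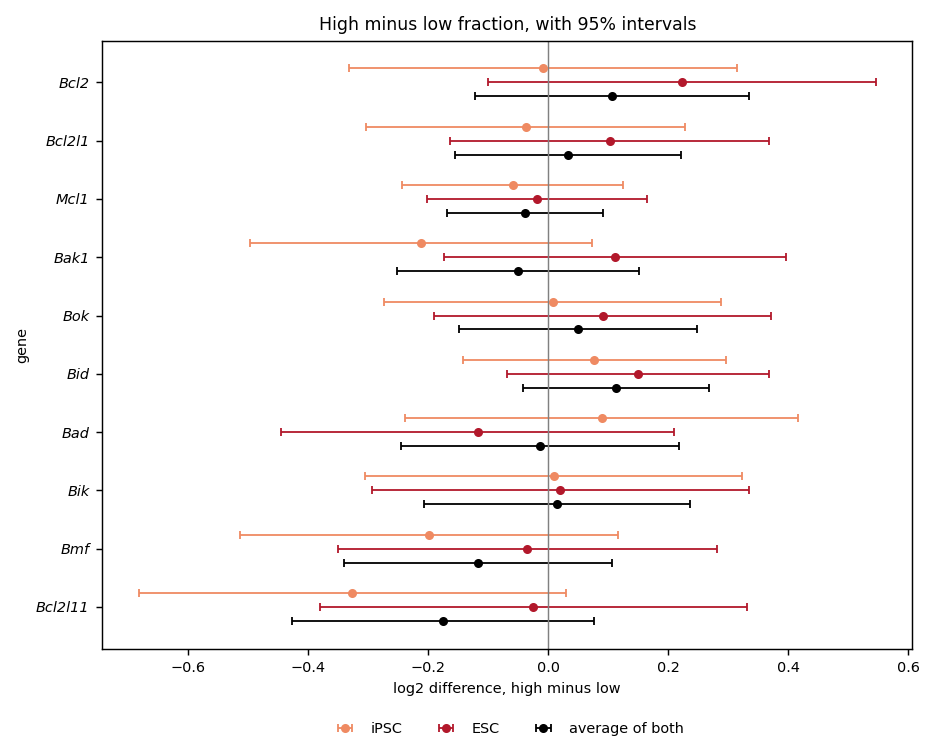
Log2 difference, high minus low fraction, of each member in iPSC, in ESC and averaged over both (points), with 95% intervals from limma (bars). Every interval includes 0, and the averaged ones lie within -0.43 and 0.34.

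The second question was whether the difference between fractions itself differed between the cell types. The iPSC effect minus the ESC effect was below 0 for 9 of the 10 members, and *Bad* was the exception. limma called 0 of 10, and it called 0% of all probe sets. The counts at an unadjusted p under 0.05 were 0 of 10 and 4.36%. That of *Bak1* was -0.32 ± 0.19 (SE; interval -0.73 to 0.08; adjusted p = 0.9998), and between -0.46 and -0.22 without 1 array. That of *Bcl2l11* was -0.30 ± 0.23 (interval -0.80 to 0.20; adjusted p = 0.9998), and between -0.45 and -0.16 without 1 array. The 10 interaction values rest on the same 12 arrays and are not independent of each other.

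The third question was whether iPSC and ESC differed. Averaged over the fractions, 0 of 10 members were called, against 2.87% of all probe sets, and 0 of 10 had an unadjusted p under 0.05, against 14.7%. The iPSC minus ESC differences ran from -0.15 ± 0.11 for *Bad* (interval -0.38 to 0.08; adjusted p = 0.593) to 0.15 ± 0.10 for *Bmf* (interval -0.07 to 0.37; adjusted p = 0.578). *Bak1* followed at 0.13 ± 0.09 (interval -0.07 to 0.33; adjusted p = 0.596). No member separated the 6 iPSC arrays from the 6 ESC arrays, which 2.75% of all probe sets did.

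Compared within the high fraction, 0 of 10 members were called (0.186% of all probe sets) and 0 of 10 had an unadjusted p under 0.05 (9.52%), with iPSC minus ESC differences from -0.22 for *Bcl2l11* to 0.07 for *Bmf*. There 0 of 10 had arrays that did not overlap, against 15.7% of all probe sets. Within the low fraction, 0 of 10 were called (0.397% of all probe sets). There *Bak1* had the one unadjusted p under 0.05 among the members, against 11.2% of all probe sets. Its mean was 7.71 ± 0.18 in iPSC low and 7.42 ± 0.11 in ESC low (SD, n = 3 each). The difference was 0.29 ± 0.13 (SE; interval 0.01 to 0.58; limma adjusted p = 0.437). Without iPSC low 4 the *Bak1* difference was 0.19, and its unadjusted p stayed under 0.05 in 9 of 19 refits. Every *Bak1* value of iPSC low lay above every value of ESC low, which held for 1 of 10 members and for 15.8% of all probe sets. The same iPSC low arrays enter this difference and that between the iPSC fractions.

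**Figure D3:**
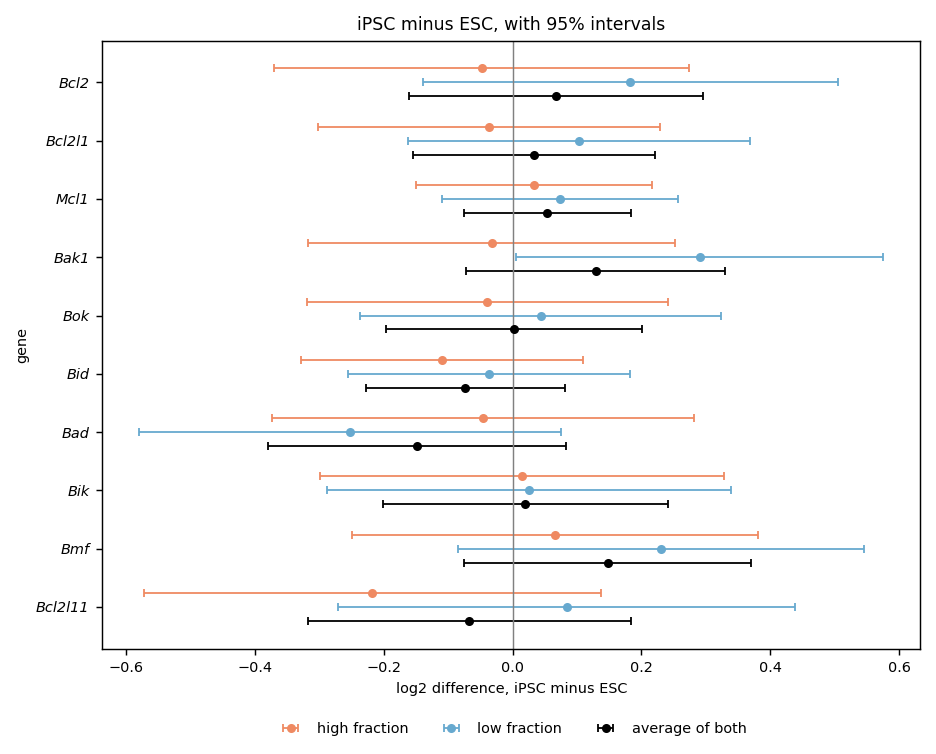
Log2 difference, iPSC minus ESC, of each member in the high fraction, in the low fraction and averaged over both (points), with 95% intervals from limma (bars). Of the 30 intervals only that of *Bak1* in the low fraction, 0.01 to 0.58, leaves out 0: its adjusted p is 0.437, and the difference is 0.19 without iPSC low 4.

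The rest of the apoptosis pathway gave a few called genes, none of them in the BCL2 family. In the averaged comparison 1.60% of all probe sets were called higher and 0.905% lower in the high fraction, 403 and 228. With each array centred on its median the counts were 361 and 368. Of 15 other BCL2 family genes, limma called 0 higher and 0 lower, and 5 had an unadjusted p under 0.05, against 15.6% of all probe sets. This list was drawn widely and also holds the BCL2-interacting genes *Bnip1*, *Bnip2*, *Bnip3* and *Bnip3l*. The median difference of all 15 genes was -0.03, against 0.00 over all probe sets. Of the 5 with an unadjusted p under 0.05, 4 had values below 0 and 1 a value above 0. The value above 0 was that of *Bcl2l2*, which encodes the pro-survival protein BCL-W, at 0.21 (adjusted p = 0.318), a gene named after its value was seen. Those below 0 were *Pmaip1*, which encodes the BH3-only protein NOXA, a p53 target, at -0.36 ± 0.11 (SE; adjusted p = 0.110), *Bnip2* at -0.36 ± 0.11 (adjusted p = 0.135), and the mitophagy receptors *Bnip3l* at -0.24 ± 0.08 (adjusted p = 0.138) and *Bnip3* at -0.34 ± 0.15 (adjusted p = 0.310). *Pmaip1* averaged 3.92 ± 0.08 in iPSC high and 4.19 ± 0.23 in iPSC low, and 3.88 ± 0.26 in ESC high and 4.32 ± 0.18 in ESC low (SD, n = 3 each). Its fractions did not overlap in either cell type, as for 19.3% of all probe sets in iPSC and 13.1% in ESC. The gaps were narrow. The highest high array and the lowest low array were at 4.006 and 4.021 in iPSC, and at 4.161 and 4.176 in ESC. *Bbc3*, which encodes the BH3-only protein PUMA and is a p53 target as well, was at -0.01.

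Of 12 caspase and apoptosome genes, 1 fell and 1 rose, and the median difference was -0.06. *Casp2*, an initiator caspase tied to DNA damage and centrosome number, averaged 7.41 ± 0.08 in iPSC high and 7.99 ± 0.12 in iPSC low, and 7.47 ± 0.06 in ESC high and 7.81 ± 0.08 in ESC low (SD, n = 3 each). No high array reached a low array of its cell type. Fractions that did not overlap, in either direction, were found for 19.3% of all probe sets in iPSC and 13.1% in ESC. The averaged difference of *Casp2* was -0.46 ± 0.07 (SE; adjusted p = 0.00371). *Casp2* was also called in iPSC alone (-0.58 ± 0.09, adjusted p = 0.0222) but not in ESC alone (-0.34 ± 0.09, adjusted p = 0.234), and the iPSC call was lost without any of 5 arrays. *Cycs*, the gene of cytochrome c itself, averaged 4.53 ± 0.20 in iPSC high and 3.71 ± 0.35 in iPSC low, and 4.33 ± 0.49 in ESC high and 3.501 ± 0.40 in ESC low. Its averaged difference was 0.82 ± 0.18 (adjusted p = 0.0311), and the call was lost without any of 8 of the 12 arrays. *Casp8*, the caspase that cleaves BID, was -0.32 ± 0.10 (adjusted p = 0.135) and *Apaf1*, the apoptosome scaffold, -0.29 ± 0.11 (adjusted p = 0.245).

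Of 11 death receptor genes, 1 fell and 0 rose in the averaged comparison, with a median of 0.00. *Tnfrsf10b*, a p53 target that encodes the mouse TRAIL receptor, averaged 6.74 ± 0.21 in iPSC high and 7.15 ± 0.20 in iPSC low, and 6.65 ± 0.17 in ESC high and 7.17 ± 0.07 in ESC low (SD, n = 3 each). Its difference was -0.46 ± 0.10 (SE; adjusted p = 0.0236), and the call was lost without any of 5 of the 12 arrays. *Tnfrsf1a*, a TNF receptor, was -0.35 ± 0.10 (adjusted p = 0.103, or 0.0220 with the replicate number as a block). *Fasl*, the FAS ligand, was 0.31 ± 0.13 (adjusted p = 0.267) and *Tnfsf10*, the gene of TRAIL, 0.10 ± 0.06 (adjusted p = 0.489).

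Of 28 upstream regulators of BCL2 proteins, 2 fell and 1 rose, and the median was -0.02. *Rb1*, the retinoblastoma gene, averaged 5.90 ± 0.03 in iPSC high and 6.73 ± 0.06 in iPSC low, and 6.16 ± 0.09 in ESC high and 6.78 ± 0.07 in ESC low (SD, n = 3 each). *Rb1* had an averaged difference of -0.72 ± 0.06 (SE; adjusted p = 0.000232), and it was called in iPSC (-0.83 ± 0.09, adjusted p = 0.00517) and in ESC (-0.62 ± 0.09, adjusted p = 0.00963). The iPSC call was lost without iPSC high array 4 (adjusted p = 0.0521), and the ESC call without ESC high array 2 (adjusted p = 0.0538). *Mdm2*, which encodes the ligase that degrades p53 and is itself a p53 target, fell by 0.45 ± 0.07 on the log2 scale (adjusted p = 0.00508). *Dynll1*, the dynein light chain that binds BIM, was 0.48 ± 0.12 (adjusted p = 0.0474), a call kept without 1 of the 12 arrays (iPSC high 2) and lost without each of the other 11. *Mapk9*, a JNK kinase, was -0.21 ± 0.07 (adjusted p = 0.174).

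Of 8 genes of the inhibitors of apoptosis and their antagonists, 0 were called by limma. An unadjusted p under 0.05 was found for 1, against 15.6% of all probe sets. This was *Septin4*, whose ARTS product binds XIAP, at 0.28 ± 0.13 (SE; adjusted p = 0.316). The group means of *Septin4* were 2.52 to 2.99, below every array median. *Xiap* was -0.14 ± 0.08 (adjusted p = 0.477), *Birc3* 0.13 ± 0.09 (adjusted p = 0.554) and *Birc6* -0.04 ± 0.06 (adjusted p = 0.833). Of 14 mitochondrial outer membrane and release genes, 0 were called and 2 had an unadjusted p under 0.05, against 15.6% of all probe sets. These were *Ghitm* at -0.18 ± 0.07 (adjusted p = 0.251) and *Aifm1*, the apoptosis-inducing factor, at -0.17 ± 0.07 (adjusted p = 0.266). *Mtch2*, the outer membrane receptor of cleaved BID, was -0.12 ± 0.07 (adjusted p = 0.444), and *Hax1* was 0.30 ± 0.21 (adjusted p = 0.557). The group means of *Hax1* were 2.97 to 3.72, where the array medians were 3.51 to 3.61.

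Between iPSC and ESC, averaged over the fractions, the death receptor list and the list of upstream regulators had 1 gene higher in iPSC each, against 0.916% of all probe sets. Both were named after their values were seen. *Pim3*, a kinase that phosphorylates BAD, averaged 5.96 ± 0.13 in iPSC high and 5.59 ± 0.04 in ESC high, and 6.03 ± 0.12 in iPSC low and 5.54 ± 0.10 in ESC low (SD, n = 3 each). Its difference was 0.43 ± 0.07 (SE; adjusted p = 0.00699), a call kept without each of the 12 arrays. *Tradd*, the adaptor of TNF receptor 1, was 0.35 ± 0.08 (adjusted p = 0.0424), and this call was lost without any of 9 of the 12 arrays (adjusted p up to 0.111). The other 4 pathway lists had 0 called by limma in that comparison, against 2.87% of all probe sets. Each held 0 to 2 genes at an unadjusted p under 0.05, against 14.7%.

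Lists for context moved between the same fractions. Of 24 G2/M genes, 17 rose and 0 fell in the averaged comparison (median 0.43), with the lowest p for *Ube2c* at 0.71 ± 0.06 (SE; adjusted p = 0.000232). Of 20 G1/S genes, 0 rose and 4 fell (median -0.12), with the largest fall for *Ccne2* at -0.74 ± 0.09 (adjusted p = 0.00102). Of 21 p53 targets, 0 rose and 8 fell (median -0.38), with the largest fall for *Trp53inp1* at -0.91 ± 0.10 (adjusted p = 0.000731). The lists share genes: *Mdm2* and *Tnfrsf10b*, already named in the apoptosis lists, are among these 8. The summed log2 level of the G2/M genes was 198 to 200 in iPSC high and 188 to 189 in iPSC low, and 195 to 199 in ESC high and 186 to 187 in ESC low. These are bulk RNA values, in which fewer cells of a type and less RNA per cell cannot be told apart, and the part of cell cycle phase in any result above was not tested.

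**Figure D4:**
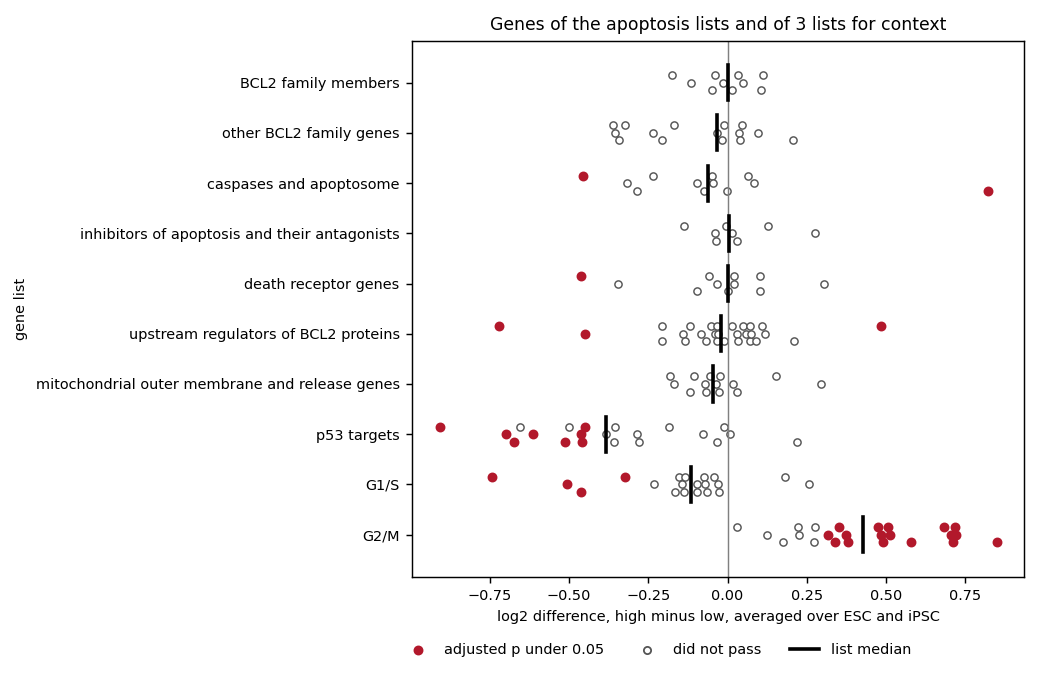
Log2 difference, high minus low averaged over ESC and iPSC, of every measured gene (points) of the BCL2 family members, 6 further apoptosis lists and 3 lists for context, with the list median (vertical bar); filled points have an adjusted p under 0.05 and vertical scatter has no meaning. The 10 members lie between -0.18 and 0.11 around a median of 0.00, while 17 of 24 G2/M genes are called on the right and 8 of 21 p53 targets on the left.

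Across the 12 arrays, the genes that followed *Bid* most closely among 10979 candidates were *Tubb5* (Pearson r = 0.905), *Men1* (r = 0.897) and *Pus1* (r = 0.857). Those closest to *Bcl2l11* were *Matr3* (r = 0.920), *Rrn3* (r = 0.875) and *Bclaf1* (r = 0.858). These values describe 12 arrays that share groups and normalization, and each is the extreme of a search over all candidates. Between pairs of members, r ranged from -0.67 (*Bad* with *Bik*) to 0.73 (*Bak1* with *Bok*) over the 45 pairs.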

How the data were processed

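RNA of TMRM-sorted mouse iPSC and ESC was measured on 12 Affymetrix arrays. The deposited table holds 1 column of log2 expression values per array, made by the authors with RMA in affy 1.36.1 and R 2.15.1, per the submitters' processing notes. RMA corrects background, quantile-normalizes arrays together and summarises the probes of a probe set, which can narrow differences of dim probe sets. Neither the chip definition nor the genome build is given in the sources used here. With arrays, precision is limited by their number. Names came from the platform annotation: 23185 probe sets had 1 symbol, 0 had several and 2021 had none.

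Values were used as deposited. limma 3.58.1 in R 4.3.3 (lmFit, eBayes without trend) was fitted with 1 mean per group over all 12 arrays and no block, with Benjamini-Hochberg adjustment over 25206 probe sets for each of 7 comparisons. Differences carry standard errors (SE), and group means carry SD. The fit was tested on simulated data. The members and lists were chosen with earlier results of these data known, so no p was adjusted over a list. All 10 members are named; of 6 pathway lists (other BCL2 family genes, caspases and apoptosome, inhibitors of apoptosis, death receptor genes, upstream regulators, outer membrane genes), genes past the threshold between fractions and the 4 with the lowest averaged p; of the lists for context, at most 2 each; and for the 2 members with the lowest p, the 3 most correlated genes. *Bbc3* was named outside this rule, after its value was seen. 12 list genes were not analysed here. Alternatives were a replicate block, a variance trend, median centring, repeated quantile normalization, a filter on dim probe sets, the compared groups alone, array weights and leaving out each array. A random block was added after seeing the data. Residuals of low and high arrays of equal number correlated at 0.11, 0.13 and 0.21 in iPSC and at 0.34, 0.23 and 0.28 in ESC, all above 0.1, so equal numbers were taken as pairs within iPSC and within ESC, which is inferred from the values and not stated in the labels. Figures were drawn with matplotlib 3.10.9.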

Additional observations from a re-analysis of the deposited data

How the results depend on the processing

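No member was called in any refit of the 7 comparisons (up to 8 alternatives and leaving out each of the 12 arrays). The refits gave 1326 values, 1 per member, comparison and setting. The lowest adjusted p was 0.248, for *Bad* in iPSC minus ESC without iPSC high array 3. Signs were less stable: 101 of these values, touching all 10 members, turned the sign of a difference of 0.10 or less in size. In the averaged high minus low comparison, 20 of 188 values did so. Over the 19 refits of that comparison, the count of members with an unadjusted p under 0.05 was 0 or 1. It was 1 in 7 of 20 refits in iPSC (*Bcl2l11*), up to 2 in ESC (2 of 20 refits), and in iPSC low minus ESC low 1 in 9 of 19 (*Bak1*) and 0 in the others. With the replicate block that uses the pairing, members called stayed at 0 in all 4 high minus low comparisons, while all probe sets called numbered 940 against 631 in the average, 236 against 138 in iPSC and 177 against 90 in ESC. The interaction had 1 against 0. The block, nested in cell type, was not run for iPSC minus ESC, where the random block gave 463 against 724 in the average. Counts of all probe sets over the other alternatives ran from 579 to 1141 (average), 100 to 502 (iPSC) and 39 to 202 (ESC). They ran from 463 to 1037 for iPSC minus ESC averaged, 1 to 155 in the high fraction (main 47) and 3 to 223 in the low fraction (main 100). Leaving out 1 array gave 380 to 695, 1 to 208, 19 to 111, 394 to 680, 1 to 48 and 14 to 74, in the same order. The lowest of these came without ESC high 3 (average), iPSC high 4 (iPSC), ESC high 2 or ESC low 2 (ESC) and iPSC high 4 (iPSC minus ESC averaged). Centring on the median moved the median difference of all probe sets by -0.04 and gave 70 higher and 85 lower in iPSC, against 88 and 50. The filter on dim probe sets tested 8 of 10 members (not *Bcl2* or *Bad*).

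Pathway calls varied more. *Casp2*, *Rb1* and *Mdm2* passed in the average in all 19 refits. *Cycs* did not without iPSC high 3 or 4, iPSC low 3 or 4, ESC high 2 or 3, or ESC low 2 or 4 (adjusted p up to 0.0828). *Tnfrsf10b* did not without iPSC high 2 or 4, iPSC low 4, ESC high 2 or ESC low 4 (up to 0.0581). *Dynll1* passed without iPSC high 2 (0.0155), not without any other array (up to 0.117), and not under centring (0.0589), repeated quantile normalization (0.0648) or array weights (0.0516). *Casp2* in iPSC was lost without iPSC high 2, 3 or 4 or iPSC low 3 or 4 (0.0555 to 0.0973), and with the compared groups alone (0.0684), as was *Rb1* in ESC (0.0812). *Tradd* in iPSC minus ESC was kept without iPSC high 2, ESC high 2 or ESC low 4 (0.0222 to 0.0474) and in 3 of the 6 other alternatives. *Tnfrsf1a* passed with the replicate block (0.0220; iPSC 0.0451) and the random block (0.0401), and *Mdm2* in iPSC (main 0.0505) passed in 6 of 20 refits. Over refits leaving out 1 array, G2/M genes higher numbered 13 to 17 and p53 targets lower 6 to 9. The causes were not tested.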
